A study of Sus scrofa with 6 samples.

Results

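The expression of 9 complement genes, namely C1QA, C1QB, C1QC, C1R, C1S, C3, C7, CFB and SERPING1, was followed in the piglet left ventricle. They were read at every probe set (a group of short probes that together give 1 value for a transcript) whose only gene symbol in the platform annotation is one of these names. Of the 9 genes, 8 were found, on 10 probe sets, among 6765 genes named in the whole table. No probe set carries the name C1QB, so this chain was not measured here. C7 and CFB have 2 probe sets each, and the brighter of the pair is called the main probe set.

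Complement is a cascade of plasma proteins and proteases that marks surfaces for uptake and attracts leukocytes. In the classical pathway the recognition molecule C1q, built of chains encoded by C1QA, C1QB and C1QC, carries the proteases C1r and C1s. C1r activates C1s, which cleaves C4 and C2 and so leads to cleavage of C3, the point where all pathways meet. Factor B (CFB) forms the convertase of the alternative pathway, C7 is part of the membrane attack complex, and SERPING1 encodes the C1 inhibitor, which inactivates C1r and C1s. The liver makes most of the circulating proteins, but macrophages, fibroblasts, endothelial cells and other resident cells of the heart also transcribe these genes.

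Large White piglets of 2 groups were compared, 3 injected with Dox and 3 with PBS, and LV free wall RNA of each animal was measured on an Affymetrix Porcine Genome Array of its own. Dox (doxorubicin) is an anticancer drug with known cardiac toxicity, and the series' design text describes a single intravenous dose of 2.0 mg/kg given to piglets 8 days old. The sample labels give an age of 28 days at collection of the tissue, 3 weeks after the injection. The control piglets received PBS (phosphate-buffered saline) and were of the same breed, age and housing. The methods of the paper give a range of doses and other days without singling out the array animals, and the labels and the design text were followed here.

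Values are MAS5 signals, an intensity on a linear scale that was scaled to the same trimmed mean on every array. Background was read from the Tag probe sets, whose synthetic sequences have no target in pig RNA. Their brightest signal was 2.5 to 6.3 on the 6 arrays, and a gene that did not exceed it on an array is described as within the Tag range there. Cardiomyocyte genes were bright in all 6 samples, with a summed signal of 57465.2 to 74863.4 in Dox-injected piglets and 47153.8 to 56655.3 in PBS-injected piglets over the 10 of 13 listed genes that were measured. The spiked hybridization controls, which should be equal on all arrays, had a geometric mean signal of 908 to 1260 on the Dox arrays and 712 to 782 on the PBS arrays. The ratio of 3' to 5' signal of the actin control, a sign of RNA integrity, was 2.20 to 6.04 on the Dox arrays and 1.96 to 2.63 on the PBS arrays. Dox-injected replicate 3 stood apart, with a mean correlation of 0.901 with the other arrays against 0.931 to 0.945 for the other 5.

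Of the 8 measured genes, C3, C1R, C1S, SERPING1 and the main probe set of CFB had a higher signal in every Dox-injected piglet than in every PBS-injected piglet, whereas C1QA, C1QC and C7 overlapped between the groups. No gene of the set passed the test, in which limma compared the log2 signals over 23999 probe sets and a call needed an adjusted p of at most 0.05 and a fold of at least 2. Over the whole array the same test called 0 probe sets (0%), and the smallest adjusted p was 0.428 over all probe sets and 0.521 over the members. The directions below are therefore those of 6 animals, and an exact two-sided permutation test of 3 against 3 animals cannot give a p below 0.1.

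The non-overlapping pattern, with every Dox array above every PBS array, occurred in 5 of the 10 member probe sets, against 6.19% of all probe sets, and the opposite pattern in 0 of 10, against 10.1%. At a nominal p (the limma p before adjustment) of 0.05 or less, 3 of the 10 were higher (C3, C1S and CFB), where 3.62% of all probe sets were higher, and 0 were lower, where 5.92% were lower. The median log2 difference, Dox-injected minus PBS-injected, was 0.48 over the member probe sets and -0.10 over all probe sets, and 90% of the member probe sets and 42.8% of all probe sets lay above 0. The members were chosen with earlier results of these data known, and C1R, C1S and SERPING1 had nearly the same profile. These shares are therefore a description and not a test of the set, and they depend on the scaling of the arrays. With the arrays scaled to the hybridization controls in place of the trimmed mean, the median of all probe sets moved to -0.57 and that of the members to 0.01, and all members overlapped between the groups. Of all probe sets, 33.7% then did not overlap in either direction, against 16.3% with the trimmed mean. Under that scaling the log2 difference was 1.06 for CFB, 0.80 for C3, 0.42 for C1R and 0.41 for C1S, all lower than the values given below. That scaling moves the log2 difference of every probe set by the same amount. The members' median relative to that of all probe sets, 0.58, is therefore the same under either scaling by construction. In whole tissue a change in the number of cells of a type and a change in RNA per cell cannot be told apart.

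**Figure D1:**
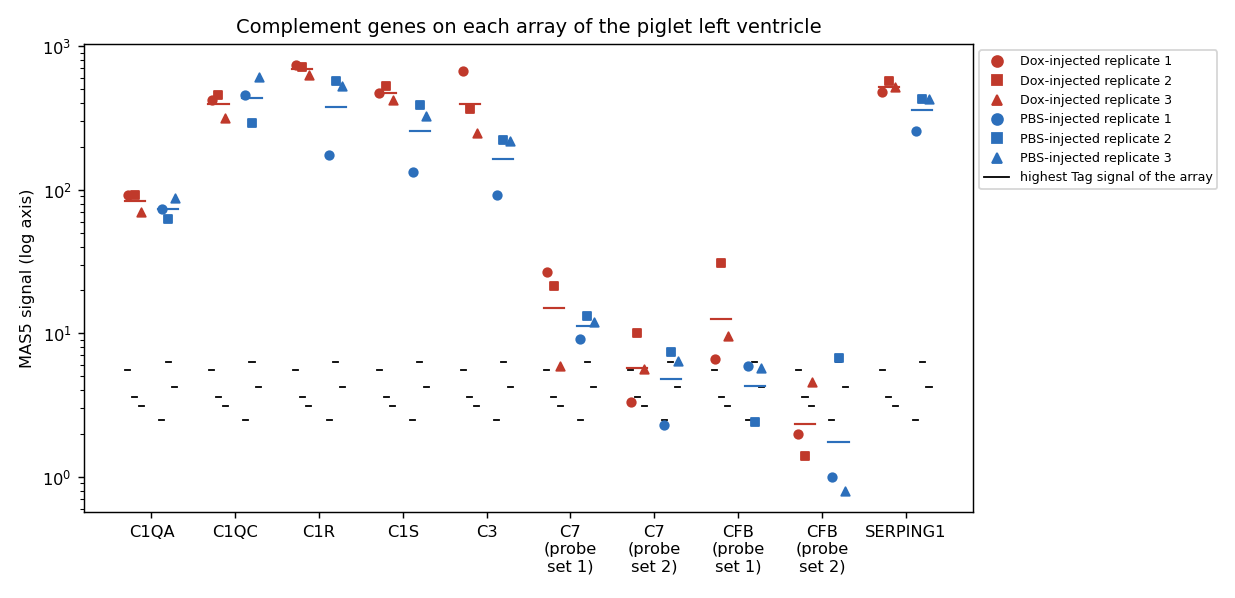
MAS5 signal (log axis) of each member probe set on each array, with Dox-injected piglets in red on the left and PBS-injected piglets in blue on the right; coloured lines are geometric means and black ticks the highest Tag signal of that array. The red points of C1R, C1S, C3, SERPING1 and the first probe set of CFB all lie above the blue ones, a separation that is lost when the arrays are scaled to the hybridization controls, and the second probe set of CFB lies mostly within the Tag range.

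C1QA and C1QC, the measured chains of the C1q recognition molecule and genes expressed mainly by tissue macrophages, overlapped between the groups with the trimmed mean scaling. C1QA gave 91.7, 91.8 and 70.5 in Dox-injected piglets, against 73.0, 63.0 and 86.9 in PBS-injected piglets. C1QC gave 423.6, 459.8 and 314.7 in Dox-injected piglets, against 458.5, 291.9 and 608.7 in PBS-injected piglets. In both genes PBS-injected replicate 2 had the lowest value of all animals while PBS-injected replicate 3 lay near or at the top. C1QA averaged 84.7 ± 12.3 in Dox-injected and 74.3 ± 12 in PBS-injected piglets (SD, n = 3 each). The log2 difference of C1QA was 0.19 with a 95% confidence interval of -0.37 to 0.75 (adjusted p = 0.803, limma), and it was -0.28 when the arrays were scaled to the hybridization controls. Under quantile and cyclic loess normalization it was 0.36 and 0.37, and under cyclic loess the C1QA groups did not overlap. C1QC averaged 399 ± 75.5 in Dox-injected and 453 ± 158 in PBS-injected piglets (SD, n = 3 each), with a log2 difference of -0.14 and an interval of -0.79 to 0.52 (adjusted p = 0.886, limma). The sign of C1QC turned without Dox-injected replicate 3 (0.03) or without PBS-injected replicate 3 (0.11). Both intervals reach well away from 0 on either side, so they do not show that the groups were equal.

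The list of macrophage and leukocyte genes was split. Of its 15 genes 12 were measured, 6 lay above 0 and 6 below, none had a nominal p of 0.05 or less at its main probe set, and the median log2 difference was 0.02. Over the 10 genes above Tag level on at least 3 arrays the log2 differences ran from -0.65 for CD74 to 0.60 for CD14, which was dim (4.5 to 16.2). CD163 had 0.57 at its main probe set. Its second, dimmer probe set had 1.16 at a nominal limma p of 0.0431, and the groups overlapped at both. TYROBP had every Dox-injected piglet above every PBS-injected piglet, and CTSS and CD74 had every Dox-injected piglet below. Over all probe sets these patterns occurred in 6.19% (above) and 10.1% (below). The log2 difference of TYROBP, 0.39, is smaller than the shift to lower values that scaling to the hybridization controls gives every probe set. The summed signal of the list was 1509.7 to 1566.2 in Dox-injected piglets and 1455.1 to 1632.2 in PBS-injected piglets.

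C1R and C1S, the paired proteases of the C1 complex, are neighbouring genes in the pig assembly Sscrofa11.1 and had nearly the same profile. C1R gave 736.7, 722.1 and 627.3 in Dox-injected piglets, against 173.2, 576.5 and 528.4 in PBS-injected piglets. C1S gave 469.9, 531.2 and 419.3 in Dox-injected piglets, against 132.9, 391.1 and 327.9 in PBS-injected piglets. Both genes were higher in all 3 Dox-injected piglets, and in both PBS-injected replicate 1 had by far the lowest signal, with the other 2 PBS-injected piglets much closer to the Dox-injected ones. C1R averaged 695 ± 59.4 in Dox-injected and 426 ± 220 in PBS-injected piglets (SD, n = 3 each), a 1.85-fold ratio of geometric means. Its log2 difference was 0.89 with a standard error of 0.42 and an interval of -0.06 to 1.84 (adjusted p = 0.535, limma). C1S averaged 473 ± 56.0 in Dox-injected and 284 ± 135 in PBS-injected piglets (SD, n = 3 each), a 1.83-fold ratio, with a log2 difference of 0.87, a standard error of 0.37 and an interval of 0.02 to 1.73 (adjusted p = 0.521, limma). PBS-injected replicate 1 set much of the size of both. Without it the log2 difference was 0.33 for C1R and 0.40 for C1S. Whether the differences of C1R and C1S were larger than those of C1QA and C1QC was not tested.

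SERPING1, the inhibitor of C1R and C1S, had a smaller difference and shared the low value of PBS-injected replicate 1. Its signals were 479.5, 571.0 and 521.2 in Dox-injected piglets, against 257.9, 426.3 and 430.8 in PBS-injected piglets. Every Dox-injected piglet was higher, the nearest pair being Dox-injected replicate 1 and PBS-injected replicate 3. The mean was 524 ± 45.8 in Dox-injected and 372 ± 98.6 in PBS-injected piglets (SD, n = 3 each), a 1.44-fold ratio of geometric means. The log2 difference was 0.53 with a standard error of 0.24 and an interval of -0.01 to 1.07 (adjusted p = 0.523, limma). It was 0.29 without PBS-injected replicate 1 and 0.06 with the arrays scaled to the hybridization controls.

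C3, the central component, had the largest difference among the members other than the dim CFB. Its signals were 675.7, 367.5 and 249.1 in Dox-injected piglets, against 91.3, 220.9 and 219.9 in PBS-injected piglets. The groups did not overlap, but Dox-injected replicate 3 was close to PBS-injected replicates 2 and 3, and the extremes were Dox-injected replicate 1 at the top and PBS-injected replicate 1 at the bottom. The mean was 431 ± 220 in Dox-injected and 177 ± 74.5 in PBS-injected piglets (SD, n = 3 each), a 2.41-fold ratio of geometric means. The log2 difference was 1.27 with a standard error of 0.44 and an interval of 0.26 to 2.28. Its nominal limma p was 0.0198 and its adjusted p 0.521. It was 0.84 without PBS-injected replicate 1, 0.88 without Dox-injected replicate 1 and 1.60 without Dox-injected replicate 3. Dox-injected replicate 1, the array with the highest C3 signal, also had the highest 3' to 5' ratio of actin (6.04), and the part of RNA integrity in the value was not tested.

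**Figure D2:**
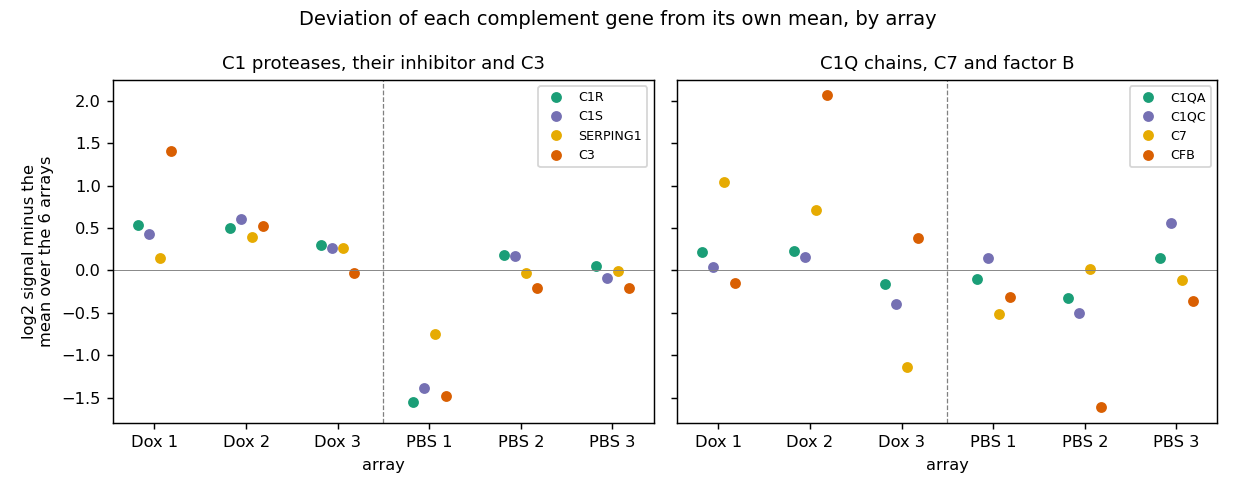
Log2 signal of each member on each array minus that gene's mean over the 6 arrays, with Dox-injected piglets left of the dashed line and PBS-injected piglets right of it. C1R, C1S, SERPING1 and C3 share a low point in PBS-injected replicate 1, while the C1Q chains, C7 and CFB each have their own order of samples.

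The profiles of C1R, C1S and SERPING1 over the 6 arrays were close to each other. As a description over 6 arrays that share scaling and sample, Pearson's r of the log2 signals was 0.99 between C1R and C1S, 0.97 between C1S and SERPING1, 0.96 between C1R and SERPING1 and 0.87 between C1R and C3. With the group means removed the same pairs had 0.99, 0.96, 0.94 and 0.78, so samples of the same group also varied together in these genes. PBS-injected replicate 1 carries much of that spread. C1QA and C1QC, adjacent genes in Sscrofa11.1, had r of 0.74, and 0.95 with group means removed. Between C1R and the C1Q chains r was 0.34 for C1QA and -0.20 for C1QC. C3 was less tied to the C1 proteases and their inhibitor, with 0.79 for SERPING1 (0.56 with group means removed), and had 0.70 with C7 (0.76) and 0.58 with C1QA (0.41). C1QA and C7 had 0.67 (0.63). PBS-injected replicate 1 was the lowest of the 6 arrays on 5 of the 10 member probe sets, and Dox-injected replicate 2 was the highest on 5 of 10. The matching shares were 16% and 14.4% among the 17069 probe sets left once dim ones were dropped. The bases differ, since the dim second probe set of CFB is among the 10 but not among the 17069.

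CFB, which encodes factor B and lies next to C2 in Sscrofa11.1, was dim. Its main probe set gave 6.6, 30.7 and 9.6 in Dox-injected piglets, against 5.9, 2.4 and 5.7 in PBS-injected piglets. The groups did not overlap, but Dox-injected replicate 1 exceeded PBS-injected replicate 1 by less than 1 signal unit, only Dox-injected replicate 2 was well clear of the Tag range, and PBS-injected replicate 2 was within it. The mean was 15.6 ± 13.1 in Dox-injected and 4.67 ± 1.97 in PBS-injected piglets (SD, n = 3 each), with a log2 difference of 1.53, a standard error of 0.67 and an interval of 0.01 to 3.06 (adjusted p = 0.523, limma). Without Dox-injected replicate 2 it was 0.88. It was 0.54 with 16 added to each signal, where the nominal call was lost, 0.98 as the mean of both probe sets and 2.27 with array weights. The second probe set of CFB was above the Tag range on only 2 arrays, with signals of 1.4 to 4.6 in Dox-injected and 0.8 to 6.7 in PBS-injected piglets, and no fold is read from it.

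C7, of the membrane attack complex, did not separate the groups. The main probe set gave 26.8, 21.2 and 5.9 in Dox-injected piglets, against 9.1, 13.1 and 12 in PBS-injected piglets. Dox-injected replicates 1 and 2 were above all PBS-injected piglets, and Dox-injected replicate 3 was below all of them. The log2 difference was 0.41 with an interval of -0.92 to 1.74 (adjusted p = 0.824, limma). It was 1.08 without Dox-injected replicate 3, -0.01 without Dox-injected replicate 1, 0.16 without Dox-injected replicate 2 and -0.06 with the arrays scaled to the hybridization controls. With other settings on all 6 arrays it lay between 0.26 (16 added to each signal) and 0.72 (array weights). The second, dimmer probe set, above the Tag range on 4 arrays, also overlapped, with 3.3, 10 and 5.6 in Dox-injected and 2.3, 7.4 and 6.4 in PBS-injected piglets and a log2 difference of 0.25 (adjusted p = 0.908, limma).

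**Figure D3:**
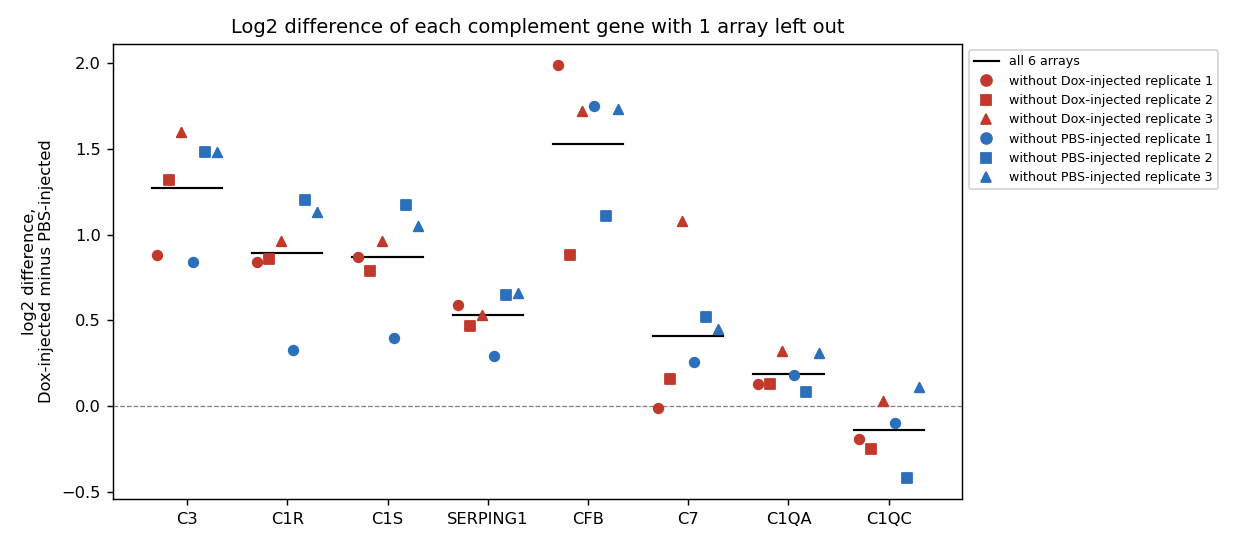
Log2 difference, Dox-injected minus PBS-injected, of each member at its main probe set with all 6 arrays (black line) and with 1 array left out (red where it is a Dox-injected piglet, blue where it is a PBS-injected piglet). C1R, C1S, C3 and SERPING1 are lowest without PBS-injected replicate 1, and C1QC and C7 cross 0. Where the groups do not overlap, leaving out an array cannot turn the sign.

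The rest of the complement system was read from a list of 45 other genes, of which 25 had a probe set and 20 were above Tag level on at least 3 arrays. Of the 25, 15 lay above 0 and 10 below, with a median log2 difference of 0.11 against -0.10 over all probe sets. None passed the adjusted threshold, and at a nominal p of 0.05 or less there was 1 higher gene (C4A) and 1 lower gene (CD55) of the 25, near the 3.62% and 5.92% of all probe sets. C4A, the substrate of C1s, gave 42.6, 35.4 and 24.6 in Dox-injected piglets, against 14.3, 27.1 and 11.2 in PBS-injected piglets. Here Dox-injected replicate 3 was below PBS-injected replicate 2, so the groups overlapped. Its log2 difference was 1.03 with an interval of 0.09 to 1.98 (adjusted p = 0.521, limma), 0.57 with the arrays scaled to the hybridization controls and 0.59 with 16 added to each signal. Under quantile and cyclic loess normalization it was 1.24 and 1.25, and the groups did not overlap. C2, the other substrate of C1s, gave 8.0, 13.9 and 13.1 in Dox-injected piglets, against 3.3, 7.3 and 11.0 in PBS-injected piglets, with an overlap and a log2 difference of 0.82 (adjusted p = 0.622, limma) that was 0.34 without PBS-injected replicate 1.

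In the alternative pathway, factor D (CFD), the protease that cleaves factor B and a product of fat cells, gave 942.9, 443.3 and 324.6 in Dox-injected piglets, against 129.9, 710.4 and 639.1 in PBS-injected piglets. The groups overlapped widely, and the log2 difference of 0.40 was -0.39 without PBS-injected replicate 1 and -0.07 with the arrays scaled to the hybridization controls. Properdin (CFP), which stabilizes the convertase, gave 12.7, 22.8 and 6.9 in Dox-injected piglets, against 7.3, 11.6 and 25.4 in PBS-injected piglets, with full overlap. In the terminal pathway, 5 of 6 other genes had a probe set, 3 were above Tag level on at least 3 arrays and none had a nominal p of 0.05 or less.

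Among the regulators on the cell surface, CD55 (decay accelerating factor), which takes convertases apart, had groups that did not overlap, in the other direction. Its main probe set gave 15.3, 8.0 and 9.4 in Dox-injected piglets, against 48.1, 16.5 and 19.2 in PBS-injected piglets. Every Dox-injected piglet was lower, and PBS-injected replicate 1, the lowest array for C1R, C1S, C3 and SERPING1, was the highest for CD55. The log2 difference was -1.24 with a standard error of 0.49 and an interval of -2.37 to -0.12 (adjusted p = 0.521, limma). It was -0.76 without PBS-injected replicate 1 and -0.65 with 16 added to each signal. With the arrays scaled to the hybridization controls, which lowers every log2 difference, it was -1.71 (nominal limma p of 0.0111) and the groups did not overlap. The other probe sets of CD55 were above the Tag range on at most 2 arrays, and no fold is read from them. Under quantile and cyclic loess normalization the CD55 groups overlapped, with a log2 difference of -1.02 and -1.03 and a nominal limma p of 0.0649 and 0.0625. CD46, the cofactor for cleavage of C3b and C4b, gave 680.9 to 781.4 in Dox-injected and 713.4 to 778.0 in PBS-injected piglets at its main probe set, with a log2 difference of -0.01 and an interval of -0.37 to 0.34. CD59, which blocks the membrane attack complex, gave 555.5 to 615.0 in Dox-injected and 460.6 to 567.0 in PBS-injected piglets, with a log2 difference of 0.18 and an interval of -0.21 to 0.56. Both overlapped between the groups and had the narrowest intervals of the 20 genes.

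Of the soluble regulators, clusterin (CLU) varied more within groups than between them, with 185.7, 1375.5 and 698.1 in Dox-injected piglets, against 1193.5, 1014.3 and 175.7 in PBS-injected piglets. The receptors C3AR1 and C5AR1 had no probe set under their names. Of the measured receptors, VSIG4, a macrophage receptor for C3 fragments, gave 264.8, 261.1 and 206.3 in Dox-injected piglets, against 153.4, 200.7 and 246.7 in PBS-injected piglets. The groups overlapped, with a log2 difference of 0.30 (adjusted p = 0.668, limma) that was 0.12 without PBS-injected replicate 1 and -0.16 with the arrays scaled to the hybridization controls. ITGB2, the common chain of the leukocyte integrin receptors for iC3b, had a log2 difference of 0.11 with an interval of -0.59 to 0.81, and its partner ITGAM was above the Tag range on only 2 arrays.

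**Figure D4:**
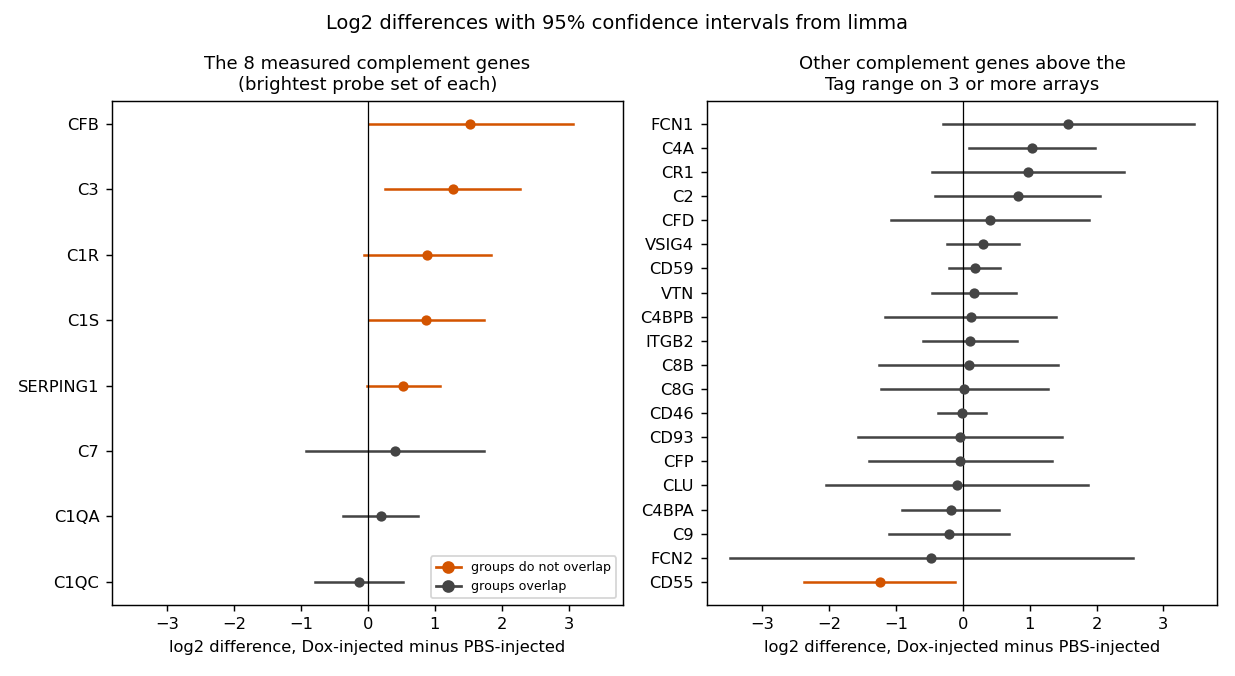
Log2 difference, Dox-injected minus PBS-injected, with its 95% confidence interval from limma for the 8 measured members (left) and the 20 other complement genes above Tag level on at least 3 arrays (right), in orange where no Dox-injected piglet overlaps a PBS-injected piglet. In the left panel 5 members are orange and above 0, and in the right panel CD55 alone is orange, below 0. Under quantile or cyclic loess normalization CD55 overlaps and C4A does not, and under cyclic loess C1QA does not overlap either. With the arrays scaled to the hybridization controls all members overlap and CD55 does not.

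Genes that raise complement transcription or belong to the acute phase response were read from a list of 18, of which 15 had a probe set. At their main probe sets 11 lay above 0 and 4 below, the median log2 difference was 0.35, and 2 had a nominal p of 0.05 or less, both higher, where 3.62% of all probe sets were higher. Of these, HP was above the Tag range on only 2 arrays. PTX3, a pentraxin that binds C1q and is made locally in inflamed tissue, gave 17.0, 29.3 and 108.0 in Dox-injected piglets, against 7.9, 11.7 and 12.5 in PBS-injected piglets. All Dox-injected piglets were higher, with replicate 3 far above the rest, and the log2 difference was 1.85 with a standard error of 0.63 (adjusted p = 0.521, limma) and 1.09 without Dox-injected replicate 3. CEBPD, a transcription factor of the acute phase response, gave 457.5, 532.8 and 392.9 in Dox-injected piglets, against 102.8, 390.0 and 434.8 in PBS-injected piglets at its main probe set. The low value of PBS-injected replicate 1 seen in C1R, C1S, C3 and SERPING1 occurred here too, the groups overlapped, and the log2 difference of 0.82 was 0.15 without that animal. Its 2 dimmer probe sets had log2 differences of 1.31 and 1.02, at nominal limma p values of 0.0341 and 0.0241. CEBPD is named for these, as its main probe set had a nominal limma p of 0.134. The other genes of the list above Tag level on at least 3 arrays overlapped between the groups. Their log2 differences were 0.95 for CEBPB, 0.35 for NFKBIA, 0.26 for STAT3, 0.04 for IL1B, -0.03 for IRF1 and -0.08 for TNF.

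The markers of other cell types were read beside these values. The cardiomyocyte genes had 9 of 10 above 0 and 6 with every Dox-injected piglet above every PBS-injected piglet, a pattern of 6.19% of all probe sets. Their sums, given above, did not overlap. These patterns hold for the trimmed mean scaling only. The largest cardiomyocyte log2 difference was 0.37 (MYH7 and CKM). Scaling to the hybridization controls lowers every log2 difference by the same amount, that of C1R from 0.89 to 0.42, so all 10 would lie below 0 there. Of 13 fibroblast genes 11 were measured, all 11 lay below 0 and 6 had a nominal p of 0.05 or less, where 5.92% of all probe sets were lower. Their summed signal was 2162.1 to 4822.8 in Dox-injected and 4796.0 to 8263.7 in PBS-injected piglets, which overlap slightly. Of 9 endothelial genes, 8 lay below 0 and 2 had a nominal p of 0.05 or less, both lower, against the same 5.92%. Their summed signal was 1398.0 to 1448.2 in Dox-injected and 1519.6 to 2318.3 in PBS-injected piglets. The median log2 difference was -0.91 over the fibroblast genes and -0.56 over the endothelial genes, opposite in sign to that of C1R, C1S, C3 and SERPING1, and PBS-injected replicate 1 had the highest sum of both lists. Of 8 neutrophil genes 5 were measured and 4 had a nominal p of 0.05 or less, all higher, where 3.62% of all probe sets were higher. Their summed signal was 78.6 to 1017.4 in Dox-injected and 19.5 to 34.1 in PBS-injected piglets. Dox-injected replicate 2 had the highest neutrophil sum and the highest CFB signal. Of 11 liver genes 10 were measured, 6 above 0 and 4 below with a median of 0.08, but only 3 were above Tag level on at least 3 arrays. Their summed signal, 263.1 to 319.9 in Dox-injected and 321.9 to 387.8 in PBS-injected piglets, was mostly APOA1, with 233.2, 205.0 and 256.2 in Dox-injected and 349.1, 348.5 and 284.8 in PBS-injected piglets. ALB lay in the other direction, with 12.2, 44.3 and 41.7 in Dox-injected and 6.9, 22 and 18.2 in PBS-injected piglets and a log2 difference of 1.01 (adjusted p = 0.601, limma). The red cell genes had a summed signal of 106.1 to 251.1 in Dox-injected and 186.8 to 683.6 in PBS-injected piglets, highest in PBS-injected replicate 1. The 4 measured adipocyte genes had 1326.3 to 1477.1 in Dox-injected and 1210.0 to 1368.2 in PBS-injected piglets, and the groups overlapped in both of these lists. The part of these cell types in the complement values was not tested.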

How the data were processed

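LV free wall RNA of 6 piglets, 3 per group, was measured on 6 arrays, and groups and replicate numbers come from the labels. The authors deposited intensities (MAS5 signals) made with GCOS, version 1.4 in the submitters' processing notes, at a 2% trimmed mean of about 100 per array. MAS5 adjusts each array as a whole, so a shift shared by most genes is not seen. Scanner files were not used here. Of 24123 probe sets, 124 array controls were left out. A signal of 0 was raised to 0.1 before log2. In R 4.3.3, limma 3.58.1 (lmFit, and eBayes with an intensity trend) was fitted over 23999 probe sets without covariates, with Benjamini-Hochberg adjustment over all of them. Confidence intervals are 95% intervals of that fit, and the number of arrays limits their precision. Gene names are those of the platform annotation (10069 with 1 symbol, 198 with several, which were not named, and 13732 with none), and no symbol differed from the RefSeq table of Sscrofa11.1, from which gene neighbours were taken. The main probe set of a gene is the one with the highest geometric mean. All members were reported. Other complement and inducer genes were named at a nominal p of 0.05 or less if above Tag level on at least 3 arrays. Defining genes listed with the rule could be named whatever their p. Cell type lists were to be given as counts and summed signals. Outside this rule CD163, TYROBP, CTSS, CD74, CD14, APOA1, ALB, MYH7 and CKM of the cell type lists were also named. So were the inducer genes CEBPB, NFKBIA, STAT3, IL1B, IRF1 and TNF. The members and lists were chosen with earlier results of these data known. The fit was tested on simulated data. The fit was repeated with cyclic loess or quantile normalization, after adding 16 to each signal, without dim probe sets (17069 kept), with array weights, with eBayes lacking the trend, with a replicate block, and with the methods' t-test. Further alternatives were the mean of a gene's probe sets, the ratio of arithmetic means, an adjusted p of at most 0.1 without a fold limit, each array left out, and, chosen after the values were seen, scaling to 27 hybridization control probe sets. Sequences of the genes and probes are not analysed here. Python 3.11.15 and matplotlib 3.10.9 drew the figures.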

Additional observations from a re-analysis of the deposited data

How the results depend on the processing

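No member passed the adjusted threshold under any alternative run, and the smallest adjusted p of a member was 0.181. Under the 3 other scalings (quantile, cyclic loess and hybridization controls), C1R, C1S, C3, CFB and SERPING1 kept their direction in 15 of 15 values. With the hybridization controls this was fixed beforehand, since the shift is the same for every probe set and smaller than each of these differences. SERPING1 was left at 0.06. C1R, C1S and SERPING1 had nearly the same profile, so the 15 values are not separate results. Leaving out an array could not turn the direction, since the groups of these genes do not overlap. At a nominal p of 0.05 or less the main fit had 3 member probe sets and 9.54% of all probe sets. The member count was 0 with eBayes without a trend (7.4% of all probe sets), 0 with the methods' t-test (7.16%) and 0 with scaling to the hybridization controls (20.5%). With 1 array left out it was 0 to 4 (4.51% to 16.2%), and 0 without PBS-injected replicate 1 (4.51%). The count of 5 member probe sets whose groups do not overlap (16.3% of all probe sets) was 6 with cyclic loess normalization (15.6%), where C1QA joined them. It was 0 with scaling to the hybridization controls (33.7%). The median of 0.48 was 0.01 with that scaling and 0.27 to 0.88 with 1 array left out. With the scaling to the hybridization controls C1QA had -0.28, C7 -0.06, CFD -0.07, VSIG4 -0.16 and CD55 -1.71. With 16 added to each signal CFB had 0.54, C4A 0.59, C2 0.26, PTX3 1.10 and CD55 -0.65. With array weights C1QC had 0.00 and CLU 0.77. With 1 array left out C1QC had -0.42 to 0.11, C7 -0.01 to 1.08, CFD -0.39 to 0.83 and CLU -0.97 to 0.72. The split of all probe sets at a nominal p of 0.05 or less was 869 higher and 1421 lower, against 1072 and 1089 with quantile normalization, 1063 and 1062 with cyclic loess, and 184 and 4729 with the scaling to the hybridization controls. The scaling to the hybridization controls moves every log2 difference by the same amount, so the lower values it gave follow from the scaling itself. Why these controls differed between the groups was not tested, nor was the cause of the other changes.

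Deviations of same-numbered arrays from their group means correlated at -0.05, 0.06 and -0.11. These values show no shared effect of the replicate number, but they cannot establish that the animals were unpaired. A note in the paper speaks of pairs of failing and non-failing samples, without saying how they were paired. With the replicate block, 3 member probe sets and 9.64% of all probe sets had a nominal p of 0.05 or less. C3 and C1S were in both sets, SERPING1 stood in place of CFB, and 0 passed the threshold.

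With 3 animals per group a difference must be large against the animals' spread to pass an adjustment over 23999 probe sets. Nothing in the labels says how the arrays were batched.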

Other observations

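As a description over 6 arrays, the non-member genes with the profile most like the mean of C1QA and C1QC, among 4981 brighter genes, were LOC100152722 (Pearson's r 0.966), MRPS36 (0.961), SPCS1 (0.951), SP110 (0.932) and POP4 (0.927), and 9 genes had r above 0.9. For C3 they were CNOT1 (0.987), MSTO1 (0.977), LOC780435 (0.966), SUPT4H1 (0.963) and DTD1 (0.958), with 38 genes above 0.9. With 6 points that share an array scaling, such values arise in many genes. DTD1, an enzyme that removes D-amino acids from tRNA, gave 595.8, 547.2 and 495.0 in Dox-injected piglets, against 310.1, 455.5 and 408.4 in PBS-injected piglets. Like C3, all the genes listed for C3 were lowest in PBS-injected replicate 1, which follows from their choice by likeness to it.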
